A study of Rattus norvegicus with 8 samples.

Results

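Ldhb encodes the B subunit of lactate dehydrogenase, the enzyme that turns pyruvate into lactate and back, and its transcript was followed here in rat whole blood together with those of other enzymes of glucose breakdown. The set was named as 10 genes, the dehydrogenase subunits Ldhb and Ldha, the pyruvate kinases Pkm and Pklr, and Pgk1, Eno1, Hk1, Pfkl, Aldoa and Bpgm. A probe set, the group of short oligonucleotides that reports 1 transcript on an Affymetrix array, was taken where the platform annotation gives it exactly 1 of these symbols, and all such probe sets were kept. This gave 17 probe sets of 9 genes, out of 31099 in the table. No probe set names Pkm alone, and the 1 that names it with another gene was not used. Of the 17, 3 are manufacturer control probe sets for Hk1, which were described but not tested, so 14 entered the tests. Ldhb was chosen by the wide spread of its values between the arrays: its SD over the 8 arrays was 0.0522 on the deposited log2 scale and ranked 5 among the 31042 tested probe sets. The spread of Ldhb is therefore a description.

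The 4 mulberry arrays hold blood RNA of male Wistar rats given a high-fat diet that contained 1% mulberry leaf powder, and the 4 high-fat arrays that of male Wistar rats given the high-fat diet without it. Each diet was given for 8 weeks to 10 rats bought at 7 weeks of age, which were bled on day 56 after a fast overnight. The high-fat diet was thus shared by all 8 arrays, and a normal-diet group was not analysed here. Arrays of a diet are labelled as biological replicates without a statement that each holds a single rat and not a pool, so the tests measure only the spread between these samples. The comparison asks how mulberry leaf in the diet alters gene expression in blood.

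In glycolysis a cell splits glucose into pyruvate and gains ATP. Mature red cells have no mitochondria and depend on this route, they keep the pyruvate kinase of the Pklr gene, and they divert an intermediate through bisphosphoglycerate mutase (Bpgm) to make 2,3-bisphosphoglycerate, which loosens the hold of hemoglobin on oxygen. White cells and platelets run glycolysis as well. Lactate dehydrogenase is a tetramer of A and B subunits in varying ratio, the B subunit being typical of heart and red cells and the A subunit of skeletal muscle. In whole blood, fewer cells of a type and less RNA per cell cannot be told apart.

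The deposited values were compressed between arrays, with a median SD of 5.31e-06 over the tested probe sets and 18 probe sets above 0.01, so no difference was read as a fold change. Deviations are given in SD units, that is, distance from the mean of a probe set divided by its SD over the 8 arrays, and differences are mulberry minus high-fat on that scale. As a check of the tissue label, the hemoglobin chain gene Hbb averaged 15.09, the red cell heme synthesis gene Alas2 averaged 13.85 and the platelet factor gene Pf4 averaged 12.67 (log2), with no detection calls at hand. High-fat replicate 4 stood apart on cell type markers, with scores (mean deviation of the marker genes) of 1.94 for monocyte, 2.07 for natural killer cell and -1.54 for platelet markers.

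Ldhb was lower in 3 of the 4 mulberry arrays than in every other array, and the other mulberry array lay among the high-fat ones. Probe set 1370218_at read 6.956, 6.857, 6.865 and 6.858 in mulberry replicates 1 to 4, against 6.951, 6.953, 6.950 and 6.983 in high-fat replicates 1 to 4 (log2, compressed scale). The arrays thus fell into a lower cluster of 3 and an upper cluster of 5, and the diets overlapped through mulberry replicate 1. The gap between the clusters was 0.0850, which is 67.4% of the whole range, while the lower cluster itself spanned only 0.00822 and the upper 0.0328. The mean of Ldhb, 6.92, was near the median of all tested probe set means, 6.57 (log2). Pfkl (6.61) and the Pklr probe sets (6.66 and 6.06) were lower than Ldhb. Without detection calls, how far these transcripts lay above background is not known.

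The mean was 6.88 ± 0.0483 in the mulberry arrays and 6.96 ± 0.0157 in the high-fat arrays (log2, SD, n = 4 each). The difference was -1.44 ± 0.457 SD units (SE). In the limma fit over all 31042 probe sets its unadjusted p was 0.0167 and its adjusted p was 1, so the difference did not pass the threshold of 0.05. The two-sided exact permutation p for Ldhb alone was 0.114, where 4 against 4 arrays can reach 0.0286. Without high-fat replicate 4 the Ldhb difference was -1.36. Quantile normalization and median centring each left it at -1.44, the array shifts of the second having an SD of 2.94e-05, far below that of Ldhb.

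**Figure D1:**
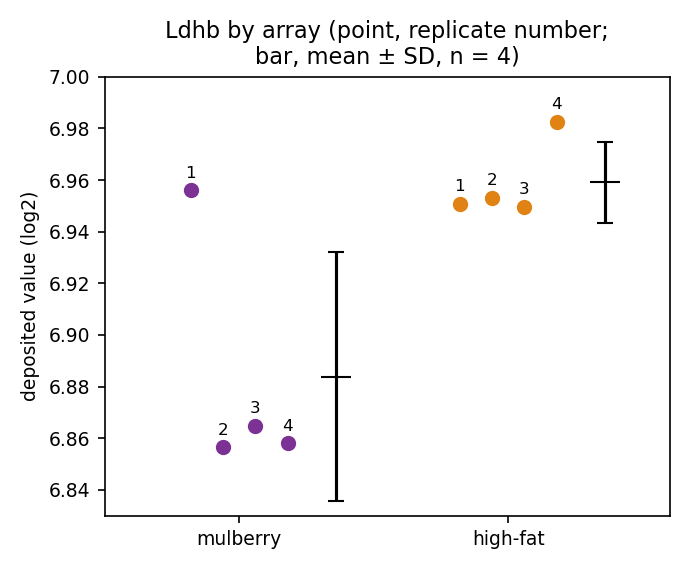
Deposited log2 value of Ldhb (vertical axis, not starting at 0) in each mulberry array and each high-fat array, numbered by replicate, with the mean ± SD of each diet (n = 4). Mulberry replicates 2, 3 and 4 lie between 6.857 and 6.865, and the other 5 arrays lie between 6.950 and 6.983.

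In 0 of 7 marker lists were mulberry replicates 2, 3 and 4 the 3 lowest arrays. The lists cover red cells, neutrophils, monocytes, platelets, T cells, B cells and natural killer cells. These 3 arrays were picked from the Ldhb values, and they were the lowest in only 1.15% of all tested probe sets. A count of 0 in 7 lists therefore cannot decide on cell content. The erythroid score, over 16 of 23 listed genes, was -0.14, -0.37, -0.26 and 0.19 in mulberry replicates 1 to 4, against 1.09, -0.29, 0.36 and -0.59 in high-fat replicates 1 to 4. With that score in the model the Ldhb difference was -1.52. The T cell score, over 15 genes, ran from -0.47 to 0.39 in the mulberry arrays and from -0.34 to 0.87 in the high-fat arrays. Erythroid markers had lower means in the mulberry arrays in 12 of 16 genes (difference of scores -0.28), and T cell markers in 7 of 15 (-0.03). The remaining lists had unequal scores between the diets too, and all are given here without a test. Natural killer cell markers had lower means in the mulberry arrays in 9 of 9 genes, with scores of -0.41, -0.65, -0.56 and -0.17 in mulberry replicates 1 to 4, against 0.13, 0.02, -0.43 and 2.07 in high-fat replicates 1 to 4, so mulberry replicates 2 and 3 were the 2 lowest arrays. Among B cell markers 5 of 5 had lower means (difference of scores -0.66), among monocyte markers 9 of 10 (-0.53), among platelet markers 0 of 9 (0.83) and among neutrophil markers 2 of 8 (0.32). Their part in the Ldhb difference was not tested, and neither was that of which rats were used.

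Few transcripts shared the array pattern of Ldhb, which was read off Ldhb itself. Mulberry replicates 2, 3 and 4 were the 3 lowest arrays in 356 of the 31042 tested probe sets, or 1.15%. Among the 191 with an SD above 0.001 this held for 1, Ldhb itself, whose place there was fixed in advance. Any given 3 of 8 arrays are the lowest in only a small share of random orders, so this rarity is not read as particular to Ldhb. Likeness was measured as Pearson's r with Ldhb over the 8 arrays, as a description, and since the Ldhb arrays form 2 clusters it mostly records whether a gene shares the split. Among the 147 other named probe sets with an SD above 0.001, none reached an r of 0.9. The highest were Cd59b, an inhibitor of complement lysis (r = 0.71), the fibronectin gene Fn1 (0.69), the phosphoinositide phosphatase gene Inpp4b (0.68), Cybb, the catalytic chain of the phagocyte NADPH oxidase (0.67), and the interleukin-2 receptor chain gene Il2rb (0.61). In all 5 the highest array was high-fat replicate 4, and in none were the 3 lowest arrays those of Ldhb. The lowest were Tpd52l1 (r = -0.74), the galectin gene Lgals2 (-0.71) and Rpia, an isomerase of the pentose phosphate pathway (-0.56). Among all 20812 other named probe sets, most of them with a very small spread, 17 had an r above 0.9 and 35 an r below -0.9.

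Ldha, the subunit that favours lactate formation in the textbook account, did not follow Ldhb in the order of the arrays. Probe set 1367586_at, at a mean of 9.32 (log2), deviated by -0.21, -0.05, -1.94 and 1.29 SD units in mulberry replicates 1 to 4, against -0.42, 0.38, -0.13 and 1.09 in high-fat replicates 1 to 4. Mulberry replicates 3 and 4, which had nearly the same Ldhb value, were the lowest and the highest array for Ldha, and the high-fat range lay within the mulberry range. The difference was -0.46 ± 0.696 SD units (limma adjusted p = 1), and it was 0.17 without mulberry replicate 3. On the deposited scale the SD of this probe set was only 8.46e-05, against 0.0522 for Ldhb. The array shifts that median centring makes had an SD of 2.94e-05. The Ldhb arrays form clusters of 3 and 5, each under the minimum of 6 arrays set here for a tested correlation. No correlation of Ldhb with another member was therefore tested, and the r values with Ldhb above are a description.

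The 2 dehydrogenase genes also differ in the letters just upstream of their starts. These letters are shown because Ldha is a textbook target of the hypoxia-inducible factors. The sequences are the 250 bases before the start site from RefSeq, build GRCr8. Each match to ACGTG on either strand, a form of the core that these factors bind, is in capitals. The form GCGTG was not searched, and both stretches hold it unmarked. Ldhb lies on the minus strand, chr4:177177409-177177658, and Ldha on the plus strand, chr1:106507842-106508091.
Ldhb: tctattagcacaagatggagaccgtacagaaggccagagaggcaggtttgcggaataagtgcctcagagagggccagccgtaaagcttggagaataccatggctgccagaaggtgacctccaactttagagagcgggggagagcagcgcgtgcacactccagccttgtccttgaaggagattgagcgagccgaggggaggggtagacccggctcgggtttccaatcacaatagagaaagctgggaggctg
Ldha: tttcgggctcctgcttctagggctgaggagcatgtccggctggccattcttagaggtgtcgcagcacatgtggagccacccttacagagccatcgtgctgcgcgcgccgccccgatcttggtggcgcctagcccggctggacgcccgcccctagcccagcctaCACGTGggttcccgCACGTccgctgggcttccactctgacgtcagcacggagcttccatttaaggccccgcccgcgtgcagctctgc

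The Ldha stretch held 3 matches beginning 87, 86 and 73 bases before the start, the first 2 being both strands of CACGTG. The Ldhb stretch held 0 matches to ACGTG, a contrast that covers this form of the core only. The motif was present in 16.6% of the 33469 such stretches available. Of 13 stretches of 9 members, Pkm among them and Pgk1 not searched, 3 held it, those of Ldha, of 1 of the 3 Aldoa starts and of 1 of the 2 Hk1 starts. A match describes these letters only, and the arrays measured transcripts and no binding.

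Aldoa, Pgk1 and Eno1, which encode fructose-bisphosphate aldolase A, phosphoglycerate kinase and enolase 1, did not pass between the diets. Aldoa deviated by 0.40, -0.67, -1.41 and 0.57 SD units in mulberry replicates 1 to 4, against -0.34, -0.28, -0.22 and 1.96 in high-fat replicates 1 to 4. Eno1 deviated by 1.15, -0.06, -1.52 and -0.23 in the mulberry arrays, against -0.68, 0.62, -0.69 and 1.41 in the high-fat arrays. Mulberry replicate 3 was the lowest array of both genes and high-fat replicate 4 the highest, and the diets overlapped. Differences were -0.56 ± 0.685 for Aldoa and -0.33 ± 0.707 for Eno1 (SD units, limma adjusted p = 1 for each). Without mulberry replicate 3 the Eno1 difference was 0.14, and without high-fat replicate 4 it was 0.09, while that of Aldoa without high-fat replicate 4 was -0.00126.

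Pgk1 had 3 probe sets that disagreed. At 1388318_at the deviations were -0.01, -0.94, -1.87 and 0.43 SD units in mulberry replicates 1 to 4, against 0.02, 0.39, 0.61 and 1.38 in high-fat replicates 1 to 4, and the difference was -1.20 ± 0.568. At 1387361_s_at, whose suffix marks probes that can match several transcripts, it was -0.72 ± 0.663. Median centring turned these to 1.16 and 0.63. At 1368906_at, the dimmest of the 3 with a mean of 5.48 (log2), the difference had the opposite sign, 1.22 ± 0.562. The diets overlapped at all 3, and the limma adjusted p was 1 for each, so no direction is given for the gene.

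Correlations with Ldha over the 8 arrays were computed for 12 member probe sets other than Ldhb, a family chosen after the values were seen. Pgk1 1387361_s_at had r = 0.91 (exact permutation p = 0.00201, adjusted 0.0121 over the 12), with rho = 0.76 (exact permutation p = 0.0368, adjusted 0.221). Its r was 0.87 without the 2 arrays farthest from the Ldha median, mulberry replicates 3 and 4. Without high-fat replicate 4 it was 0.89. Within the diets its r was 0.95 in mulberry and 0.93 in high-fat arrays, a description, since n = 4 each is under the minimum of 6. After median centring, however, its r over the 8 arrays was 0.57, a smaller value by over 1.5 times. Pgk1 1388318_at had r = 0.83 (adjusted exact permutation p = 0.0692), Aldoa had 0.80 (0.0792) and Eno1 0.65 (0.176), with adjusted p-values for rho of 0.240, 0.240 and 0.293 by the same permutation test. These 3 did not pass after adjustment. Over all tested probe sets the median r with Ldha was -0.0783, and 4.71% exceeded 0.7.

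Monocyte markers were lowest in mulberry replicate 3 and highest in high-fat replicate 4, as were Aldoa, Eno1 and 2 of the Pgk1 probe sets. This list, 1 of 7, was set beside the enzymes after its scores were seen. The same 2 extremes were seen in Gpi, Tpi1, Pgam1 and Tkt of the pathway lists below, though not in most genes there. The share over all tested probe sets was not counted, so the match is not read as particular to monocytes or to these enzymes. The score over all 10 listed genes, 9 of which had a lower mean in the mulberry arrays, was 0.46, -0.71, -1.11 and 0.30 in mulberry replicates 1 to 4, against -0.03, -0.33, -0.52 and 1.94 in high-fat replicates 1 to 4. The lowest mean level among these markers was 6.34 (log2). The part of monocyte content in the levels of Ldha, Aldoa, Eno1 and Pgk1 was not tested.

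**Figure D2:**
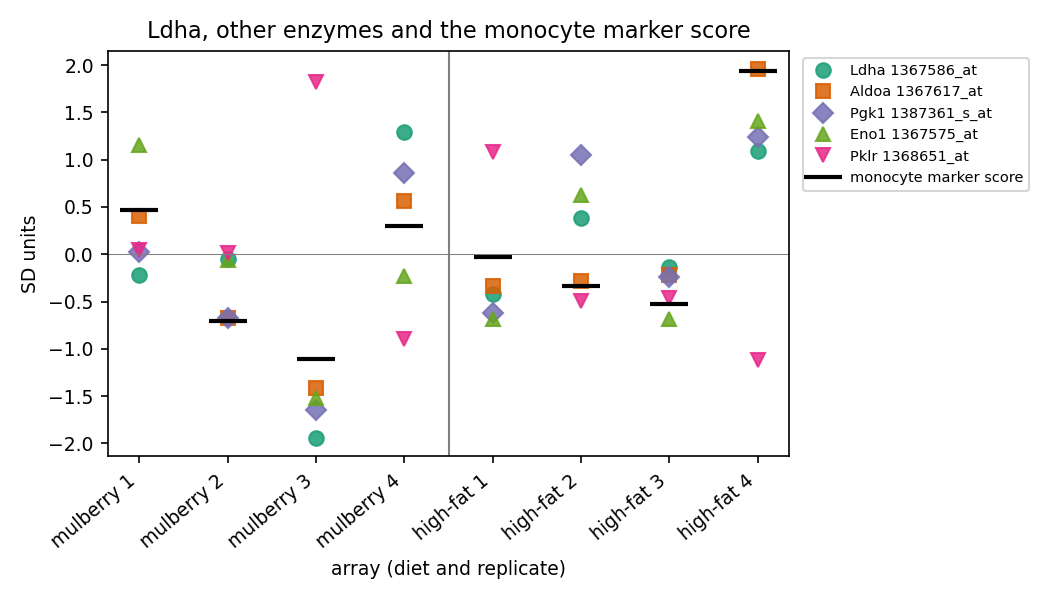
Deviation from the probe set mean in SD units (vertical axis) in the 4 mulberry and the 4 high-fat arrays (horizontal axis) for Ldha, Aldoa, 1 probe set each of Pgk1, Eno1 and Pklr, with the monocyte marker score as black bars. In mulberry replicate 3 Ldha (-1.94), Aldoa (-1.41), Pgk1 (-1.65) and Eno1 (-1.52) were at their lowest and Pklr (1.82) at its highest.

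Pklr, which encodes the pyruvate kinase of liver and red cells, ran against Ldha at 1 of its 2 probe sets. At 1368651_at the deviations were 0.05, 0.02, 1.82 and -0.89 SD units in mulberry replicates 1 to 4, against 1.08, -0.49, -0.47 and -1.11 in high-fat replicates 1 to 4. The correlation with Ldha was r = -0.93 (exact permutation p = 0.000347, adjusted 0.00417 over the 12) and rho = -0.95 (exact permutation p = 0.00114, adjusted 0.0137). Its r was -0.84 without mulberry replicates 3 and 4 and -0.91 without high-fat replicate 4. Within the diets r was -0.99 in the mulberry and -0.84 in the high-fat arrays, a description, since 4 arrays each are under the minimum of 6. After median centring r over the 8 arrays was -0.56. It no longer stood out there from both Hk1 probe sets (-0.55 each) and the Bpgm ones (-0.54 and -0.53). The SD of this probe set was only 2.32e-06 on the deposited scale, below the SD of the array shifts that median centring makes. At 1387263_at r was -0.25 (adjusted exact permutation p = 0.644), so the relation rests on 1 probe set of the gene. Between the diets the differences were 0.50 ± 0.750 and 0.96 ± 0.616 SD units, the second with mulberry replicate 1 at 2.11, and neither passed (limma adjusted p = 1).

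Bpgm, the mutase that makes 2,3-bisphosphoglycerate in red cells, was set apart by a single high-fat array. Probe set 1388544_at, with a mean of 14.01 (log2), deviated by 0.71, 0.15, 0.65 and -0.11 SD units in mulberry replicates 1 to 4, against -0.09, 0.38, 0.65 and -2.34 in high-fat replicates 1 to 4. The second probe set, 1383551_at, read 0.98, 0.03, -0.02 and 0.05 in the mulberry arrays, against 0.44, 0.14, 0.69 and -2.31 in the high-fat arrays. Both thus placed high-fat replicate 4 lowest, the array whose erythroid score was also the lowest, and otherwise the diets overlapped. High-fat replicate 1 had the highest erythroid score (1.09) and read only -0.09 and 0.44 here. The part of red cell content in these levels was not tested. The SDs of the probe sets, 2.74e-06 and 1.94e-05, were below the SD of the array shifts that median centring makes (2.94e-05). Differences were 0.70 ± 0.709 and 0.52 ± 0.691 (limma adjusted p = 1 for each), and without high-fat replicate 4 they were 0.10 and -0.44.

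Pfkl, which encodes the liver-type subunit of phosphofructokinase found in red cells too, was the member whose diets did not overlap. Probe set 1367743_at deviated by 1.83, 0.88, 0.02 and 0.40 SD units in mulberry replicates 1 to 4, against -0.58, -0.54, -0.82 and -1.19 in high-fat replicates 1 to 4. All 4 mulberry arrays lay above all 4 high-fat arrays. This held for 1 of the 14 tested member probe sets, while 2.52% of all tested probe sets had no overlap in either direction and 1.6% had the mulberry arrays higher. The difference was 1.56 ± 0.650 SD units, with an unadjusted p of 0.0482 and an adjusted p of 1 in limma. It was -0.71 after quantile normalization, and the SD behind it was only 1.30e-06 on the deposited scale.

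Hk1, which encodes the hexokinase that commits glucose to the pathway in red cells, gave no common direction. Probe set 1386929_at deviated by 1.62, -1.06, 0.49 and 0.33 SD units in the mulberry arrays, against -0.06, -0.85, -1.26 and 0.78 in the high-fat arrays, a difference of 0.69 ± 0.668. It was 1.52 after median centring, 1.18 after quantile normalization, 0.32 without mulberry replicate 1 and 1.18 without mulberry replicate 2. At 1398725_at the difference was -0.50 ± 0.703, and 1.03 after median centring, -1.004 without high-fat replicate 2 and -0.06 without high-fat replicate 3. The 3 control probe sets, which read the 3′, middle and 5′ parts of the transcript by their names, differed by 0.35, -0.32 and 0.38, untested. The diets overlapped at all 5.

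Across the set, 7 of the 14 tested member probe sets had a lower and 7 a higher mean in the mulberry arrays, and the median difference was 0.0824 SD units, against 0.0559 over all 31042 tested probe sets, of which 47.3% were lower. With each gene at its brightest probe set, 5 of the 9 genes were lower. In limma 0 of the 14 passed an adjusted p of 0.05, where 0% of all tested probe sets did. At an unadjusted limma p under 0.05 there were 2, Ldhb and Pfkl, beside 1352 of all probe sets, or 4.36%. Ldhb was chosen with its values known, so this count is a description and is not read as an excess over that share. After quantile normalization 3 of the 14 were lower, 7 having a difference of 0, and after median centring 3 were lower, where only 3.07% of all tested probe sets were.

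**Figure D3:**
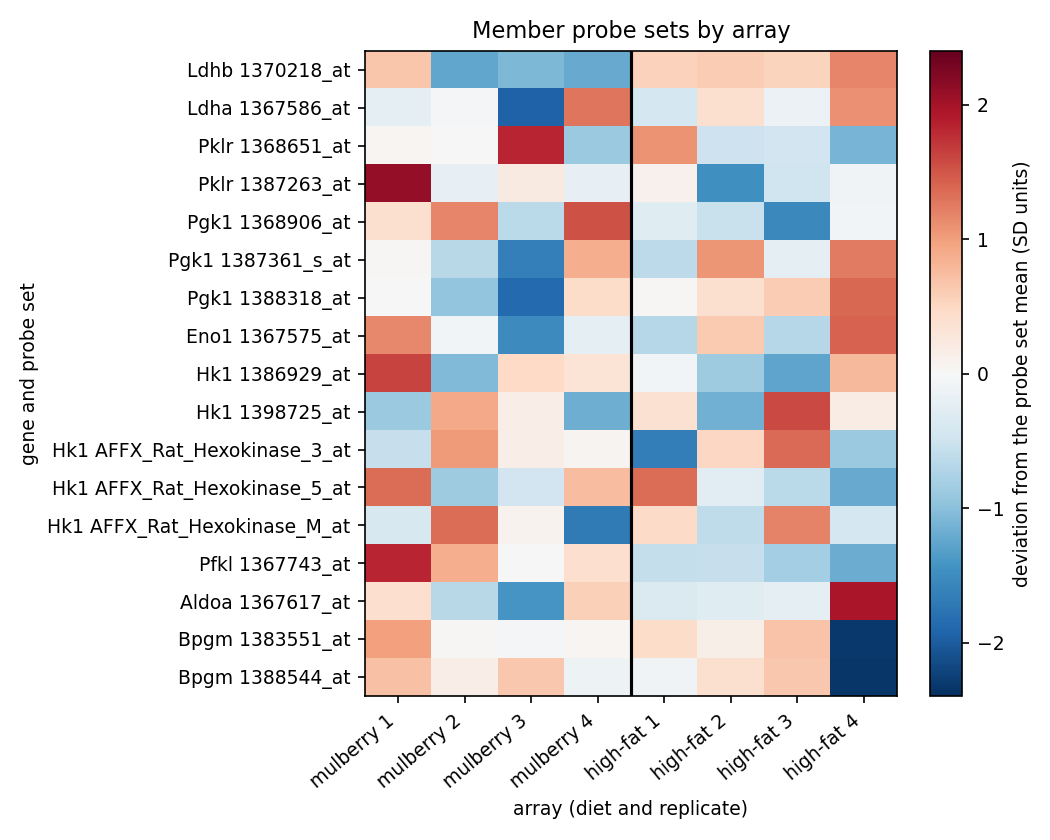
Deviation from the probe set mean in SD units (colour) for the 17 member probe sets (rows), 3 of them Hk1 controls, in the 4 mulberry arrays (left) and the 4 high-fat arrays (right). Ldhb is low in mulberry replicates 2 to 4 alone, Pfkl is higher in every mulberry array than in every high-fat array, and both Bpgm probe sets are lowest in high-fat replicate 4.

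**Figure D4:**
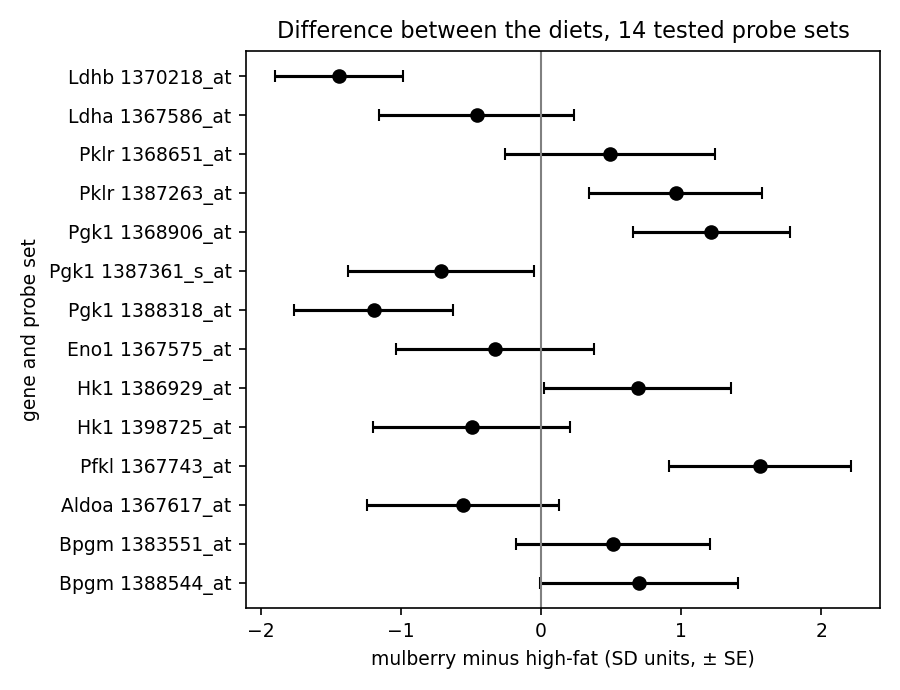
Difference of means, mulberry minus high-fat, in SD units with its standard error (horizontal axis) for the 14 tested member probe sets (n = 4 arrays per diet). Values run from -1.44 for Ldhb to 1.56 for Pfkl, and none passed the adjusted threshold.

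The genes around these enzymes were taken from 5 lists of 64 symbols, of which 56 had a tested probe set. In the mulberry arrays 29 had a lower and 27 a higher mean, the median difference was -0.108 SD units, against -0.0190 over 14217 genes, and 0 passed in limma, where 0% of all tested probe sets did. After median centring 5 of the 56 were lower, or 8.93%, where 4.30% of the 14217 genes were, so nearly all genes were higher under that setting. Of 12 other glycolytic enzymes, 7 were lower, with a median of -0.354. The muscle enolase gene Eno3 differed by -1.13 ± 0.573 and the muscle phosphofructokinase gene Pfkm by 1.06 ± 0.714. High-fat replicate 4 read 2.10 SD units for Eno3, higher than every other array.

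Of 22 genes for lactate and pyruvate handling, 11 were lower and 11 higher, with a median of -0.0818. The malic enzyme gene Me2 differed by -1.09 ± 0.584 (0.92 after median centring). Pdk4, a kinase that shuts pyruvate dehydrogenase and is induced by fasting, differed by 0.99 ± 0.616 (-0.62 after quantile normalization). Ldhc, the dehydrogenase subunit of testis, differed by 0.71 ± 0.672 (-1.04 after quantile normalization) and Slc16a1, the lactate carrier MCT1, by -0.66 ± 0.672 (1.04 after median centring). These last 2 were chosen after their values were seen, and Ldhc takes the opposite sign to Ldhb on the deposited values. The mean of Ldhc was 6.02, under the median of all tested probe set means, 6.57 (log2). Without detection calls, whether it lay above background is not known.

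Of 6 genes that set fructose 2,6-bisphosphate or fructose 1,6-bisphosphate, 4 were lower (median -0.339). Pfkfb1 differed by 0.61 ± 0.694 and Pfkfb3 by -0.60 ± 0.685, the second turning to 0.94 after quantile normalization. Of 7 pentose phosphate genes, 4 were lower (median -0.129). The lactonase gene Pgls differed by -0.68 ± 0.677 (1.12 after median centring) and H6pd, a glucose 6-phosphate dehydrogenase of the endoplasmic reticulum, by 0.56 ± 0.693.

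Of 9 regulators, 3 were lower (median 0.223). Vhl, which marks hypoxia-inducible factors for destruction, differed by -1.26 ± 0.542, and by 1.12 after median centring. Klf1, the red cell transcription factor that drives Pklr among other genes, deviated by -1.09, -1.03, -0.86 and 0.84 SD units in mulberry replicates 1 to 4, against 0.94, -0.74, 0.95 and 0.99 in high-fat replicates 1 to 4. Its difference was -1.07 ± 0.589. The diets overlapped, with mulberry replicate 4 among the high-fat arrays and high-fat replicate 2 among the mulberry ones. Hif1a itself differed by -0.10 ± 0.717 (chosen after its value was seen). None of these genes passed in limma (adjusted p = 1 for each).

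**Figure D5:**
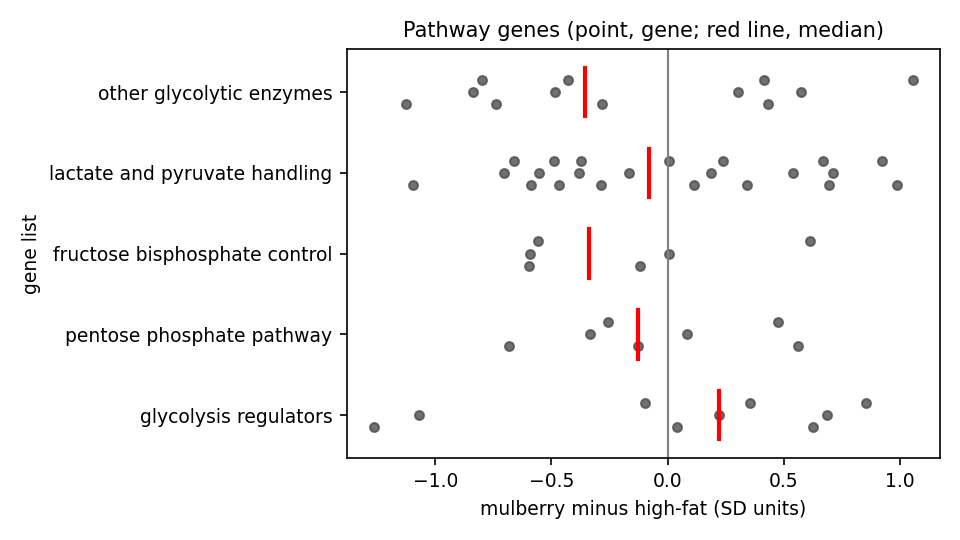
Difference of means, mulberry minus high-fat, in SD units (horizontal axis) for the 56 measured genes of 5 lists (rows), each point 1 gene and each red line the median of a list. The medians lie between -0.354 for other glycolytic enzymes and 0.223 for regulators.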

How the data were processed

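Total RNA of whole blood was labelled from 200 ng per sample and hybridised to a rat Affymetrix array, per the labels' protocols. The deposited table holds 1 value per probe set and array, read as log2 from its range of 5.17 to 15.26. How the authors summarised probes and scaled arrays to reach these values is not given in the sources used here. No intensity or detection call was used. Both the number of arrays and the compressed deposited scale limit what the differences can show. Gene names came from the platform annotation, and 20758 of 20826 tested probe sets naming 1 gene matched RefSeq (GRCr8) by gene number.

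Manufacturer controls (57) did not enter the tests. Each remaining probe set was tested with limma 3.58.1 in R 4.3.3 (two-sided lmFit and eBayes without covariates), and p-values were adjusted after Benjamini-Hochberg over 31042 probe sets. Permutation tests and counts used Python 3.11.15, numpy 2.4.6 and scipy 1.17.1. Lists used the probe set of highest mean per gene. Marker lists held 91 symbols, 72 of them measured. The named genes were all members, the 2 of largest absolute difference in each pathway list, and the 5 highest and 3 lowest in r with Ldhb among named probe sets with an SD above 0.001. The members and lists were chosen with earlier results of these data known. Alternatives were median centring, quantile normalization, leaving out each array, the brighter probe sets alone, the replicate number as a block, trended and robust variances, and 2 covariates (hybridization controls, erythroid score). On simulated data of 31042 probe sets limma found 34% of probe sets shifted by 4 SDs of their group and 98% at 8. It also called 14 unmoved probe sets. These SDs are those within a diet, not the SD units used above. The simulated noise was independent between probe sets, without shifts shared by an array.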

Additional observations from a re-analysis of the deposited data

Results flagged for a closer look

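Among 34 checks of the member probe sets, 1 per diet, 4 had an extreme array whose gap to its nearest neighbour took up more of the range of its diet than Dixon's critical value for 4 arrays allows. Chance flags about 1 in 20 such groups, and over all tested probe sets the share was 5.12% in the mulberry and 4.80% in the high-fat arrays. For Ldhb, mulberry replicate 1 was the highest mulberry array with a gap of 0.917 of the range. For the same probe set high-fat replicate 4 was the highest high-fat array (0.894). Ldhb was chosen by its wide spread, so its flags are a description and are not set against those shares. For Aldoa, high-fat replicate 4 was the highest high-fat array (0.946). For Bpgm 1383551_at, mulberry replicate 1 was the highest mulberry array (0.933).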

How the results depend on the processing

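Under every alternative run, no member passed the limma threshold, and Ldhb kept its sign: its difference lay between -1.83 and -1.36 when each array was left out in turn, was -1.81 with the hybridization controls as a covariate, and its adjusted p ran from 0.162 to 1. The fit over all probe sets called 0 under every alternative except quantile normalization, which called 12, no member among them. Quantile normalization gave Ldha, Aldoa, all 3 Pgk1 and both Bpgm probe sets a difference of 0, and turned Pklr 1368651_at to -0.267, Eno1 to 0.483, Hk1 1398725_at to 0.418 and Pfkl to -0.707. Median centring, whose array shifts (SD 2.94e-05) exceed the SD of 8 of the 14 tested member probe sets, turned Pgk1 1387361_s_at to 0.626, Pgk1 1388318_at to 1.16, Eno1 to 0.458 and Hk1 1398725_at to 1.03. With it 3 of 14 member probe sets and 5 of 56 pathway genes were lower, and with quantile normalization 3 of 14. It took the 2 correlations with Ldha that had passed to 0.574 (Pgk1 1387361_s_at) and -0.556 (Pklr 1368651_at), and turned those with Pgk1 1368906_at to -0.404 and Pgk1 1388318_at to -0.492, while quantile normalization left Ldha with no spread, so no correlation could be given there. These 2 settings for the correlations were added after the data were seen. The hybridization controls averaged 0.56 ± 0.63 in mulberry and -0.56 ± 0.86 in high-fat arrays (SD units, SD, n = 4 each), and as a covariate they turned the Bpgm differences to -0.110 and -0.122. The cause was not tested. Leaving out each array in turn gave ranges of -1.05 to 0.166 for Ldha, -0.0407 to 0.967 for Pklr 1368651_at, -0.804 to 0.143 for Eno1 and -0.436 to 0.802 for Bpgm 1383551_at, and, with the sign kept, -1.11 to -0.355 for Pgk1 1387361_s_at, -0.801 to -0.00126 for Aldoa, 0.324 to 1.18 for Hk1 1386929_at, -1.004 to -0.0595 for Hk1 1398725_at and 0.104 to 0.990 for Bpgm 1388544_at. The labels number the arrays of both diets alike, but same-numbered arrays deviated from their diet means with correlations of -0.0462, -0.0505, 0.246 and 0.163, so the numbers were not taken as pairs. With the replicate block Ldhb had -1.44 (limma adjusted p = 0.892) and no call differed. The alternatives planned for correlations with Ldhb were not run, since its arrays form 2 clusters.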
